A study of Homo sapiens with 6 samples.

Results

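Translation elongation factors are the proteins that carry a ribosome from one codon to the next. The genes described here are those listed as EEF1A1, EEF1A2, EEF1B2, EEF1D, EEF1G and EEF2, found through the gene annotation of a cDNA array. Of these 6 genes, 5 had at least 1 spot, and together they had 21 of the 9169 spots tested. EEF1A1 had 9 spots, EEF1G 8, EEF1B2 2, and EEF1A2 and EEF1D 1 each. EEF2 had no spot under its name and was not analysed here. The set was selected on earlier results of the same comparison, the differences between DN-TRF2 and GFP control arrays at these spots, so those differences are given as a description, with errors, and support no claim about the set.

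The samples were SH-SY5Y cells, an established human neuroblastoma line with features of immature sympathetic neurons. The 3 DN-TRF2 samples received a pIRES2-EGFP vector with a dominant-negative version of TRF2, which binds telomeres within the shelterin complex. The 3 GFP control samples received a vector labelled pEGF-C2 with no insert. Both groups were kept in geneticin at 500 ug/ml until collection on day 7. The labels name 3 independent experiments, and the radiolabelled cDNA of a sample went onto 1 array. The insert and the vector backbone differ together between the groups and cannot be told apart. TRF2 itself (TERF2) had 0 named spots, which leaves the group labels without a check by the targeted gene. Among 15 sympathoadrenal and neuronal marker genes, 8 had a spot, among them CHGA, DBH, GATA3 and STMN2. All 16 of those spots lay above the stand-in value of 10 on every array, but so did all but 1 of the spots of blood, liver, epithelial and muscle markers, so signal did not separate the labelled cell type from others.

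In each round of elongation, eEF1A bound to GTP brings an aminoacyl-tRNA to the ribosome and leaves as eEF1A-GDP. The eEF1B complex, built from the products of EEF1B2, EEF1D and EEF1G, then exchanges that GDP for GTP, and eEF2 moves the ribosome along the mRNA. EEF1A1 is made in nearly all cells, whereas its close paralog EEF1A2 is typical of mature neurons and muscle and replaces EEF1A1 there. Many elongation factor mRNAs, like those of ribosomal proteins, start with a 5′ terminal oligopyrimidine tract (TOP), which places their translation under the control of mTOR. EEF1A1 has many processed pseudogenes and shares much of its coding sequence with EEF1A2, so clones of either may hybridize with RNA of the other.

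The start sites are shown because EEF1A1 and EEF1B2 lay at opposite ends on GFP control replicate 2, as described further on. Each line gives the 35 bases before and the 15 bases from the RefSeq start on the transcribed strand (GRCh38.p14). Capitals mark a tract searched for on that strand only: a C followed by at least 4 bases that are each C or T, whose C lies within 5 bases of the start. EEF1A1 lies on the minus strand at chr6:73521018-73521067. EEF1B2 has 2 RefSeq starts on the plus strand, at chr2:206159574-206159623 and chr2:206159860-206159909. EEF1G lies on the minus strand at chr11:62573877-62573926.
EEF1A1: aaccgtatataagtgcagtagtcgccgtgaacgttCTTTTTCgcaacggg
EEF1B2, first start: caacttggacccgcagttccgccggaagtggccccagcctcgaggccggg
EEF1B2, second start: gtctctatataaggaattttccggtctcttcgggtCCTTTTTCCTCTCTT
EEF1G: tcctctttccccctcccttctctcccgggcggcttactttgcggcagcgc
EEF1A1 and the second start of EEF1B2 held such a tract, of 7 and 16 bases; that of EEF1B2 runs 1 base past the printed window. The first start of EEF1B2 and the EEF1G start held none within 5 bases of the start. The EEF1G line opens with an unbroken run of C and T, which lies upstream of that reach. Of 35116 promoters searched the same way 21.1% held one, and of 77 promoters of ribosomal protein genes 57 did. A match is a description of these letters and shows no use of the start in these cells.

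Deposited values are linear spot intensities, and median intensity over the tested spots ran from 480 to 712 on the 6 arrays. The text uses log2(intensity + 50) after quantile normalization, so a log2 difference is on that offset scale. Differences are DN-TRF2 minus GFP control with the standard error (SE) from limma, n = 3 arrays per group, and spots of one gene were averaged within an array for gene values. Levels are compared between arrays within a spot only, because clones differ in length and signal does not rank genes. All 21 spots lay above 10 on every array, and 20 of them lay above the median signal of all spots.

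No elongation factor spot passed limma's test after adjustment over all spots, where 0 of 9169 spots (0%) passed and the smallest adjusted p was 0.999. At an unadjusted p under 0.05 there were 0 of the 21, beside 3.41% of all spots. The mean was lower in DN-TRF2 cells at 10 of the 21 spots and higher at 11, beside 52.7% lower over all spots. Differences ran from -0.29 to 0.33, with a median of 0.044 against -0.011 over all spots. The sign of that median is not settled: it was -0.0025 with median scaling, -0.046 without DN-TRF2 replicate 3 and -0.025 without GFP control replicate 1, among 6 alternatives in which it turned. The split largely followed the gene. All 9 EEF1A1 spots had a higher mean in DN-TRF2, and 10 of the remaining 12 spots a lower one. The EEF1A1 count was 8 with median scaling of the arrays, and 7 without DN-TRF2 replicate 3 or without GFP control replicate 1. Lower spots numbered 8 without DN-TRF2 replicate 1, DN-TRF2 replicate 2 or GFP control replicate 3, with all 9 EEF1A1 spots still higher. EEF1G spots 5048 and 6170, among the lower ones, lay at -0.012 and -0.0012. DN-TRF2 was lower at all 3 replicate numbers at 3 of the 21 spots, beside 14.7% of all spots, and higher at all 3 at 3 of the 21, beside 11% of all spots. In such bulk RNA, fewer cells of a type and less RNA per cell cannot be told apart.

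**Figure D1:**
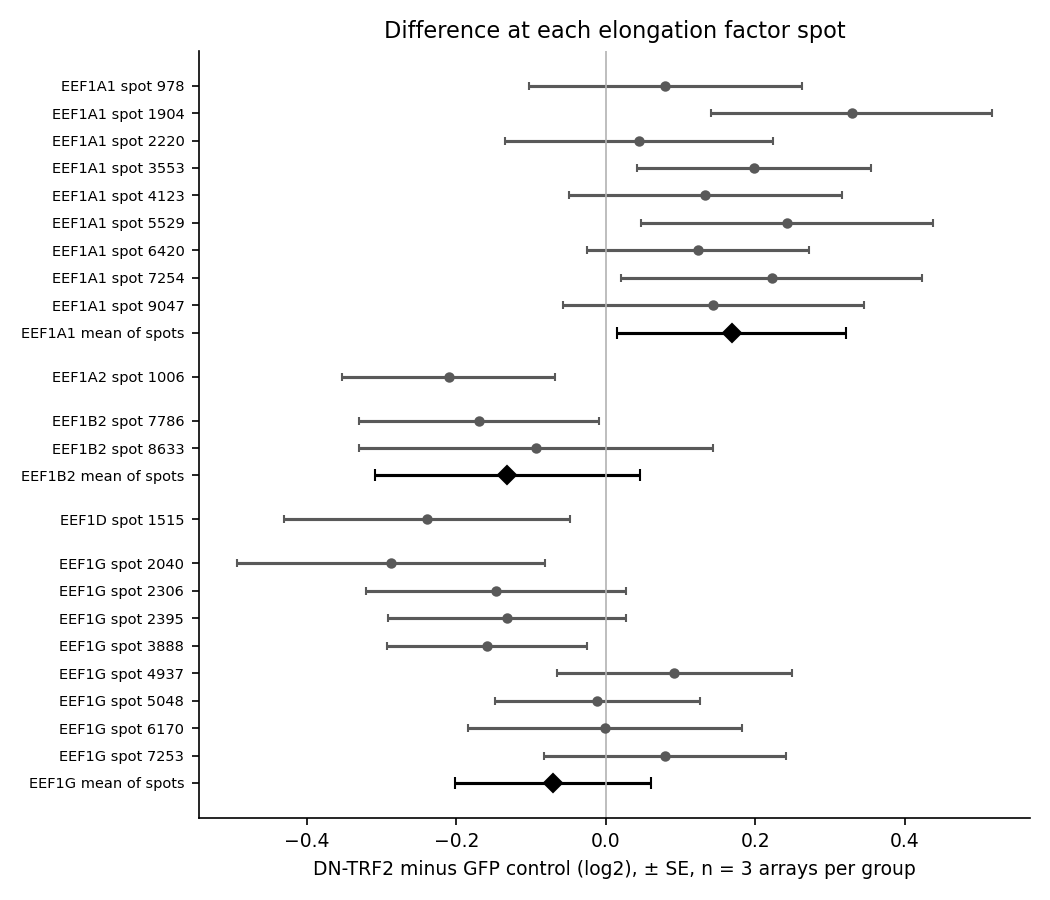
Difference between groups at each of the 21 elongation factor spots (circles) and for the mean over spots of genes with several (diamonds). The x axis is DN-TRF2 minus GFP control in log2 units and bars are SE from limma (n = 3 arrays per group). All 9 EEF1A1 spots lie right of 0 (8 do with median scaling), and EEF1A2, EEF1B2 and EEF1D lie left of it.

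EEF1A1, which delivers aminoacyl-tRNA, averaged 11.20 ± 0.20 in DN-TRF2 cells and 11.03 ± 0.18 in GFP controls (SD, log2 signal over 9 spots, n = 3 arrays each). On the single arrays the gene mean was 11.04, 11.12 and 11.42 in DN-TRF2 replicates 1 to 3, against 10.99, 10.87 and 11.22 in GFP control replicates 1 to 3. DN-TRF2 replicate 3 was the highest array and GFP control replicate 2 the lowest, and the groups overlapped. The difference was 0.17 ± 0.15 (a 1.12-fold ratio), with a 95% interval from -0.18 to 0.52. Compared within replicate numbers it was 0.050, 0.25 and 0.20, higher in DN-TRF2 in 3 of 3. The value depended on single arrays: it was 0.057 without DN-TRF2 replicate 3, 0.091 without GFP control replicate 2 and 0.27 without GFP control replicate 3.

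The 9 EEF1A1 spots carry different clones but share the 6 arrays, so they are repeat readings and not replicates. Their differences ran from 0.044 to 0.33. Spot 1904 showed the widest gap, with intensities of 2508, 3045 and 4002 in DN-TRF2 replicates 1 to 3 against 2238, 2096 and 3515 in the GFP controls as deposited. On the normalized scale its values were 11.47, 11.61 and 11.92 in DN-TRF2, against 11.31, 11.07 and 11.64 in GFP controls, a difference of 0.33 ± 0.19. Its DN-TRF2 values were higher at each replicate number, yet DN-TRF2 replicates 1 and 2 lay below GFP control replicate 3. Spots 5529 and 7254 differed by 0.24 ± 0.20 and 0.22 ± 0.20. At the other end, spot 2220 differed by 0.044 ± 0.18. It was also the dimmest elongation factor spot, at percentile 36.5 of all spots, and the one EEF1A1 spot where GFP control replicate 1 was highest, at 8.97 against 8.74, 8.51 and 8.85 on the DN-TRF2 arrays.

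The array order was largely shared by these clones. DN-TRF2 replicate 3 was highest at 8 of the 9 spots, at spot 9047 tied with GFP control replicate 3. GFP control replicate 2 was lowest at 7 of 9; at the other two, spots 978 and 4123, GFP control replicate 1 was lowest. Over the 36 pairs of EEF1A1 spots the median Pearson correlation across the 6 arrays was 0.72, with 2 pairs below 0. Over the 28 pairs of EEF1G spots it was 0.23, with 9 pairs below 0. These correlations rest on 6 shared arrays and are a description. A further spot annotated to both BTBD7 and EEF1A1 was kept out of the gene mean and differed by 0.0020 ± 0.18.

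**Figure D2:**
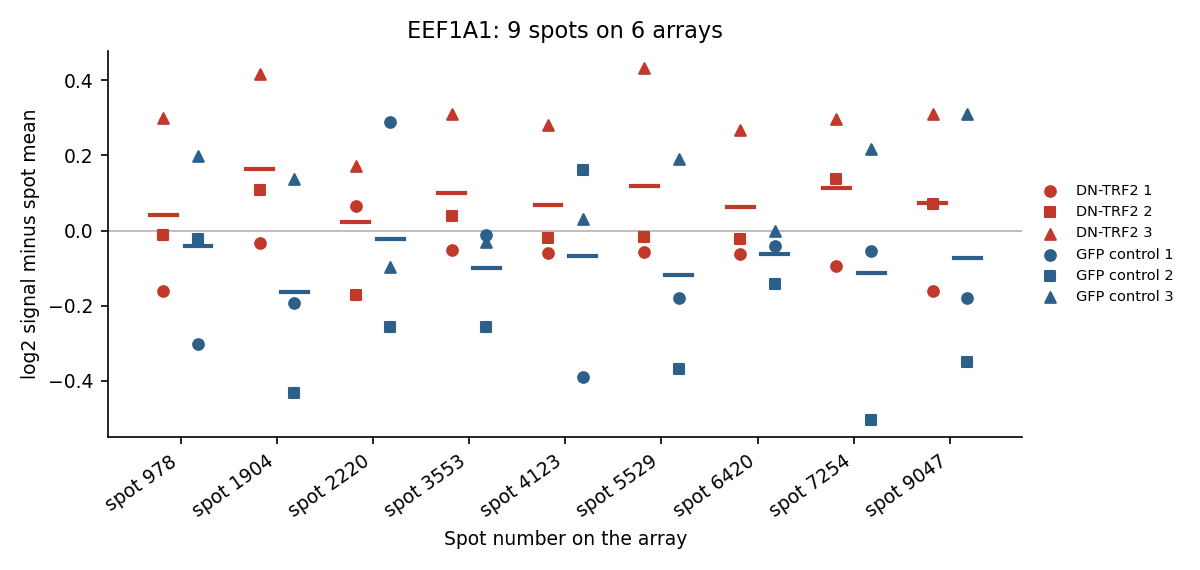
Normalized log2 signal at each EEF1A1 spot minus the mean of that spot over the 6 arrays, with DN-TRF2 arrays in red on the left and GFP control arrays in blue on the right of each spot. Marker shape gives the replicate number and short lines are group means. DN-TRF2 replicate 3 (red triangles) is highest at 8 of the 9 spots and GFP control replicate 2 (blue squares) lowest at 7.

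EEF1A2, the paralog of mature neurons and muscle, has 1 spot, and there its DN-TRF2 values lay below all GFP control values. Intensities as deposited were 1093, 1019 and 1395 in DN-TRF2 replicates 1 to 3, against 1053, 1366 and 1687 in GFP controls. After normalization they were 10.31, 10.09 and 10.31 in DN-TRF2, against 10.36, 10.48 and 10.51 in GFP controls. The gap was narrow, between 10.31 in DN-TRF2 replicates 1 and 3 and 10.36 in GFP control replicate 1. The difference was -0.21 ± 0.14 at the spot (95% interval for the gene -0.50 to 0.080), and DN-TRF2 was lower at each replicate number. It was -0.13 without DN-TRF2 replicate 2 and -0.19 without GFP control replicate 2. Groups without overlap were found at 2 of the 21 elongation factor spots, beside 8.7% of all spots. The other one was EEF1G spot 3888, also lower in DN-TRF2; over all spots 4.43% were separated in that direction.

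EEF1A1 and EEF1A2 thus differed in opposite directions, by 0.17 and -0.21. The gap between their differences was 0.094, 0.65 and 0.39 within replicate numbers 1, 2 and 3. This contrast was noticed after the values were seen, and neither gene's own difference passed the test.

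EEF1B2 encodes the small nucleotide exchange subunit of eEF1B. Its 2 spots averaged 10.71, 10.87 and 10.76 in DN-TRF2 replicates 1 to 3, against 10.68, 11.31 and 10.75 in GFP controls. GFP control replicate 2 stood above the other 5 arrays. It was the highest array at both spots, at 12.45 on spot 7786 and 10.16 on spot 8633. The difference of -0.13 ± 0.18 turned to 0.063 without GFP control replicate 2. Compared within replicate numbers it was 0.032, -0.44 and 0.013.

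EEF1D encodes the larger exchange subunit, and 1 spot carries its name. Its values were 10.17, 10.01 and 10.15 in DN-TRF2 replicates 1 to 3, against 10.75, 10.02 and 10.28 in GFP controls. GFP control replicate 1 was the high array, and GFP control replicate 2 lay among the DN-TRF2 values. The difference was -0.24 ± 0.19 (95% interval for the gene -0.66 to 0.18). Leaving out GFP control replicate 1 gave -0.041, and leaving out GFP control replicate 2 gave -0.40.

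EEF1G, the subunit that anchors the complex, gave no common direction over its 8 spots. The gene mean was 11.41 ± 0.086 in DN-TRF2 cells and 11.48 ± 0.14 in GFP controls (SD, n = 3 arrays each), a difference of -0.071 ± 0.13 with a 95% interval from -0.37 to 0.23. The mean was lower in DN-TRF2 at 6 spots and higher at 2. Spot 2040 had the largest gap, with 9.86, 9.84 and 10.12 in DN-TRF2 against 10.68, 9.92 and 10.08 in GFP controls, a difference of -0.29 ± 0.21. There GFP control replicate 1 alone was high. It was also the highest array at spots 2306 and 6170, though at spot 6170 GFP control replicate 2, at 10.26, stood further from the rest. Without that array the gene's difference was -0.017, and without GFP control replicate 2 it was -0.15.

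A pair of EEF1G spots, 3888 and 4937, carry the same clone and differed in sign. At spot 3888 the values were 12.87, 12.84 and 12.72 in DN-TRF2, against 12.95, 13.02 and 12.94 in GFP controls. At spot 4937 they were 12.91, 12.83 and 13.00 in DN-TRF2, against 12.79, 12.61 and 13.05 in GFP controls. The differences were -0.16 ± 0.13 and 0.092 ± 0.16. Their 95% intervals, -0.46 to 0.14 and -0.26 to 0.44, overlapped. Spot 7253, which had the highest signal of the EEF1G spots, read 13.64, 13.63 and 13.59 in DN-TRF2 against 13.65, 13.25 and 13.73 in GFP controls. There GFP control replicate 2 alone was low. With spot 7253 in place of the mean over spots, the EEF1G difference was 0.080.

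**Figure D3:**
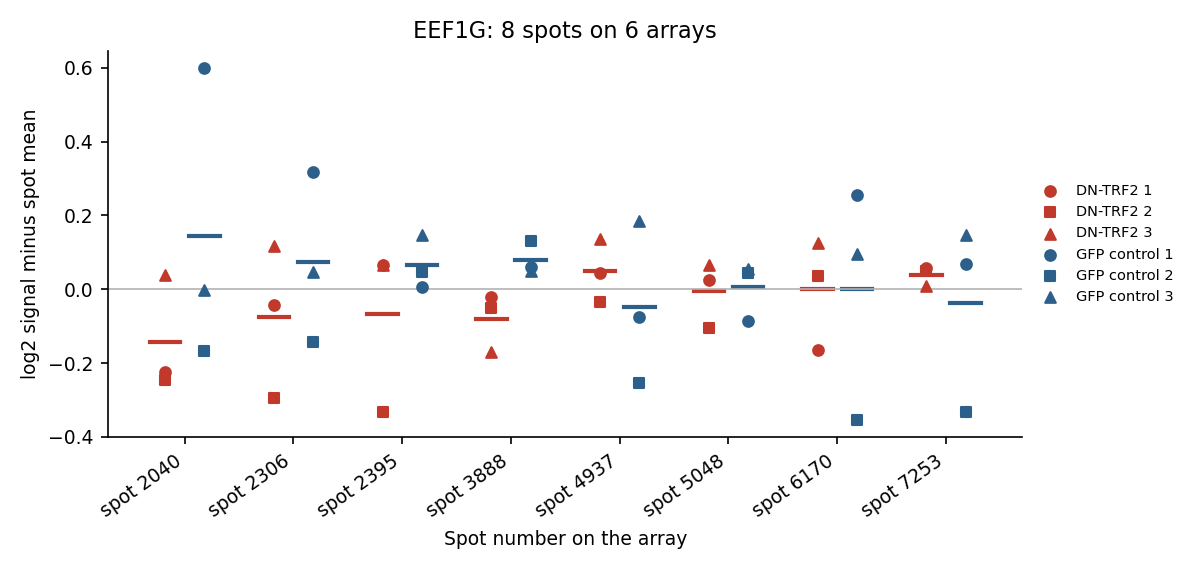
Normalized log2 signal at each EEF1G spot minus the mean of that spot over the 6 arrays, with DN-TRF2 arrays in red on the left and GFP control arrays in blue on the right. Marker shape gives the replicate number and short lines are group means. GFP control replicate 1 (blue circles) is highest at spots 2040, 2306 and 6170, and GFP control replicate 2 (blue squares) is low at spots 4937, 6170 and 7253.

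Set against the other elongation factors on the same arrays, EEF1A1 was relatively higher in DN-TRF2 cells. Its difference exceeded the mean difference of the other 4 genes by 0.33, each gene counted equally whatever its number of spots. The pooled SD of this contrast between arrays of one group was 0.18. The excess over EEF1G was 0.225, 0.247 and 0.245 within replicate numbers 1, 2 and 3, the most even of the 4. That over EEF1D was 0.62, 0.27 and 0.33, and that over EEF1B2 was 0.018, 0.69 and 0.19. All 12 such values, 3 for each of the 4 genes, were above 0. They share the EEF1A1 values and were chosen after being seen, and EEF1A1 stood above 41.8% of 6250 other genes at all 3 replicate numbers. Without pairing, the groups overlapped for EEF1A1 relative to EEF1B2, EEF1D and EEF1G, and did not overlap relative to EEF1A2. That last gap was narrow, between -0.039 in DN-TRF2 replicate 1 and -0.057 in GFP control replicate 3. EEF1A2 alone was already without overlap, and the share of other genes separated in this way was not computed, so nothing further is read from it.

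The SD was larger among GFP controls than among DN-TRF2 samples at 15 of the 21 elongation factor spots and at 78.0% of all spots. Median SD per spot was 0.18 in DN-TRF2 and 0.26 in GFP controls over the elongation factor spots, and 0.13 in DN-TRF2 and 0.24 in GFP controls over all spots. GFP control replicate 2 correlated with the other arrays at 0.954 to 0.973 across spots, and the pairs among the other 5 arrays ran from 0.974 to 0.992. The difference of each of the 5 genes without that array is given above.

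The elongation factor genes did not share one array profile with ribosomal protein genes. Cytosolic ribosomal proteins (58 genes) lay at -0.16, -0.0087 and -0.019 relative to all genes on DN-TRF2 replicates 1 to 3, against -0.21, 0.39 and 0.012 on GFP control replicates 1 to 3. GFP control replicate 2 was the highest array for 47 of the 58, beside 31.6% of all genes. EEF1B2 was also highest there, at 0.46 above its own mean over the arrays. EEF1A1 was lowest there, at -0.24, EEF1D and EEF1G lay at -0.21 and -0.13, and EEF1A2 at 0.14. So EEF1A1, whose start holds a TOP tract, and EEF1B2, of whose 2 starts 1 does, stood at opposite ends on the same array. Such ends were common there, as 31.6% of all genes were highest and 26.8% lowest on it. Among other TOP mRNAs, a list that leaves out ribosomal proteins, 4 of 12 genes were highest and 2 lowest on GFP control replicate 2 (33.3% and 16.7%). Relative to all genes, the mean of these 12 was 0.095 on that array and ran from -0.055 to 0.052 on the others. Whether a TOP tract bears on these profiles was not tested. Abundant housekeeping genes (22 genes) lay at -0.046 on that array.

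**Figure D4:**
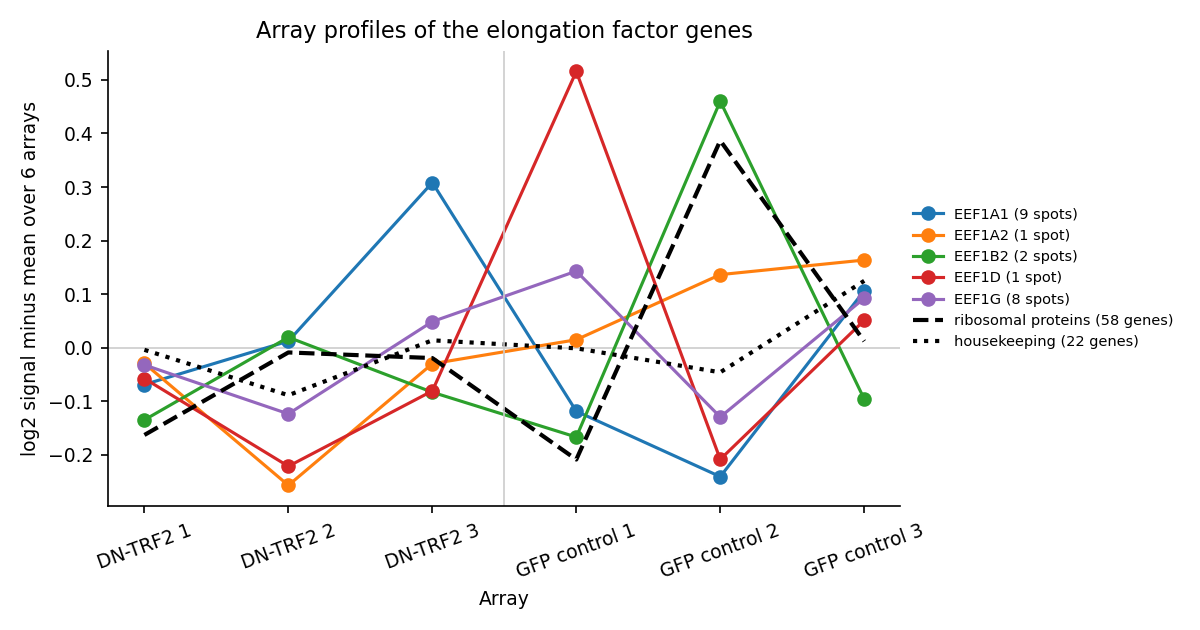
Mean log2 signal of each elongation factor gene on each array minus its mean over the 6 arrays, with DN-TRF2 arrays left of the grey line and GFP control arrays right of it. Dashed and dotted lines are the means of 58 ribosomal protein and 22 housekeeping genes relative to all genes, and lines between arrays only guide the eye. On GFP control replicate 2, EEF1B2 lies at 0.46 near the ribosomal proteins at 0.39, while EEF1A1 lies at -0.24.

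The genes around elongation gave no call either. Over all genes 0 of 6255 (0%) passed limma's adjusted p, and 3.57% had an unadjusted p under 0.05. Of 21 measured accessory elongation, decoding and termination factors, the mean in DN-TRF2 was higher for 7 and lower for 14, with a median difference of -0.044 against -0.0067 over all genes, and 0 passed in either direction. The split was 11 higher and 10 lower without GFP control replicate 2 and with no scaling between arrays, and 3 higher and 18 lower with median scaling. The median was -0.10 without GFP control replicate 3. All genes shifted too, to 3182 higher and 3073 lower without GFP control replicate 2. They were 3522 higher and 2733 lower with no scaling, and 2662 higher and 3593 lower with median scaling. DPH5 and DPH1, which help make the diphthamide residue on eEF2, differed by 0.32 ± 0.14 and 0.37 ± 0.18. Both act on the factor that has no spot here. Of 16 cytosolic aminoacyl-tRNA synthetases and scaffold proteins, which charge the tRNAs that eEF1A carries, 4 were higher and 12 lower (median -0.074), and 0 passed. With 1 array left out that median ran from -0.14 without GFP control replicate 3 to -0.026 without DN-TRF2 replicate 2, and the split was 7 higher and 9 lower without GFP control replicate 1. EEF1E1 was listed with both of these groups. GARS1, for glycine, differed by 0.16 ± 0.12 with its 2 spots opposed in sign, and MARS1, for methionine, by -0.17 ± 0.13 with all 4 spots lower.

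Mitochondrial elongation and release factors work on the ribosomes of that organelle. Of 5 measured, 3 were higher and 2 lower (median 0.14, 0.023 without DN-TRF2 replicate 1 and -0.031 without GFP control replicate 2), and 0 passed the adjusted test. MTRF1L, a mitochondrial release factor, averaged 9.83 ± 0.059 in DN-TRF2 and 9.55 ± 0.10 in GFP controls (SD, n = 3 arrays each), and MRRF, which recycles the ribosome, differed by -0.25 ± 0.17. Of 12 other TOP mRNAs measured, 3 were higher and 9 lower (median -0.093), and 0 passed. That median was -0.060 when DN-TRF2 replicate 1 was left out, and -0.037 and -0.053 when GFP control replicate 2 or 3 was. EIF4A2, a helicase of initiation, differed by 0.22 ± 0.16 and BTF3, of the nascent chain complex, by -0.23 ± 0.18. Ribosomal protein genes had 10 higher and 48 lower (median -0.11, and -0.25 without GFP control replicate 1). They became 39 higher and 19 lower without GFP control replicate 2 (median 0.047), and included RPS6 at -0.31 ± 0.12 and RPL6 at -0.35 ± 0.17. Housekeeping genes had 6 higher and 16 lower (median -0.059, and -0.10 without GFP control replicate 2), or 11 each without GFP control replicate 3, with TUBA1B at -0.36 ± 0.18 and CFL1 at -0.20 ± 0.12, and 0 passed in both of these lists. With all 6 arrays and quantile normalization, a lower mean in DN-TRF2 was the more frequent direction in each of these lists except the mitochondrial one, against 52.0% of all genes, and EEF1A1 had the opposite sign.

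The genes whose profile over the 6 arrays was most like that of EEF1A1 were looked up among 3122 genes of above-median signal. NECAB1, a neuronal calcium-binding protein, correlated with EEF1A1 at 0.993. SLC25A36, a mitochondrial carrier, PPIB, a prolyl isomerase of the endoplasmic reticulum, and PCGF5, a Polycomb group protein, each reached 0.961. SPINT1, a protease inhibitor, reached 0.945 and MAEA, part of a ubiquitin ligase, 0.937. Group differences of these 6 genes ran from 0.068 ± 0.12 for MAEA to 0.17 ± 0.15 for PPIB, with NECAB1 at 0.15 ± 0.13. They were picked for likeness to EEF1A1 on the same arrays, so a similar group difference is no separate result. Only 16 of the 3122 genes (0.512%) exceeded 0.9. With 6 arrays that share one normalization these likenesses are descriptions.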

How the data were processed

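RNA of 6 SH-SY5Y samples (3 DN-TRF2, 3 GFP control) was measured on 1-channel arrays of 9600 cDNA spots with a 33P label, per the labels' protocols. The values are linear intensity per spot as deposited by the authors; how images were read, corrected or scaled is not given in the sources used here. The value 10 recurs as a stand-in. Tests covered 9169 spots, after removal of 384 blank positions and of 47 spots that read 10 throughout. Gene names come from the platform annotation, brought to current symbols through gene IDs (GRCh38.p14; 8493 of 8517 annotated spots matched), and 8451 tested spots had 1 gene. An offset of 50 was added, log2 taken and arrays quantile-normalized. Each spot, and each gene as the mean of its spots, was tested two-sided with limma 3.58.1 under R 4.3.3, and p-values were adjusted by Benjamini-Hochberg over the whole table, with a threshold of 0.05; the fit was tested on simulated data. Array number limits precision, and intensity has no exact background.

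Members and lists were chosen with earlier results of these data known. All measured members are named, plus the 2 genes of smallest unadjusted p per related list and the 6 genes most like EEF1A1. Replicate numbers come from the sample titles. Same-numbered arrays deviated together from their group means (correlations of 0.390, 0.296 and 0.246), so same-numbered samples count as pairs, on this evidence from the values; printed errors, intervals and p-values come from the fit without that pairing, and the replicate block is an alternative. Alternatives covered scaling, offset, dim and blank spots, array weights, a replicate block, each array left out, the brightest spot per gene, and, chosen after seeing the data, a position correction and the spot of 2 genes. Promoter sequences are from RefSeq. None of EEF1D is printed, and EEF1A2 had no promoter entry in the sources used here. No statement on a tract is made for either gene.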

Additional observations from a re-analysis of the deposited data

How the results depend on the processing

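Under 17 alternatives 0 spots passed limma's adjusted p, wherever the count over all spots was recomputed. Of 177 recomputed values 172 stayed within the spread between replicates or, for counts, within 1.5 times. Some of these could not move: the replicate block leaves each difference unchanged, and the brightest spot leaves genes with 1 spot unchanged. Values that turned sign within the spread are also among the 172, so that count is no measure of stability. The median difference over the elongation factor spots, 0.044, came to -0.077 with the position correction and ran from -0.046 to 0.078 with 1 array left out, so it has no stable sign. The number of spots with an unadjusted p under 0.05 was 1 with blank and stand-in spots kept, and 0 to 2 with 1 array left out. EEF1G was 0.080 with the brightest spot per gene. With 1 array left out, the gene differences ran from 0.057 to 0.27 for EEF1A1, -0.25 to -0.13 for EEF1A2, -0.25 to 0.063 for EEF1B2, -0.40 to -0.041 for EEF1D and -0.15 to -0.017 for EEF1G. The excess of EEF1A1 over the other 4 genes ran from 0.24 to 0.45. The number of lower spots ran from 8 to 12, and that of higher EEF1A1 spots from 7 to 9. With the replicate block 0 spots passed, and the smallest adjusted p from limma over all spots was 0.269. In that fit limma gave EEF1A1 (0.17), EEF1A2 and EEF1D an adjusted p of 0.898 each, and no elongation factor gene passed. The cause of these shifts was not tested. Signal over background cannot be measured because blanks hold the stand-in value.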
